A study of Mus musculus with 21 samples.

Results

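The adventitial-like fibroblasts were 670 of 11376 kept cell barcodes (5.89%, exact binomial 95% interval 5.46 to 6.34) in 1 single-cell RNA library of mouse colon stroma. A barcode, the tag of 1 droplet, was a member when it had at least 1 UMI of Ebf1 and at least 2 UMIs in sum over Has1, Npy1r, Ackr4 and Cilp. A UMI (unique molecular identifier) stands for 1 captured RNA molecule. Members also had fewer than 3 of the 6 genes Ptx3, Ptn, Inmt, Gdf10, Myoc and Fst detected, and fewer than 2 of the 4 mesothelial genes Msln, Upk3b, Lrrn4 and Upk1b. The levels of these 15 genes chose the members, so they are given only as a description, and the other genes of the same barcodes are described without a test as well.

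C57BL/6 mice gave all 21 samples of the study, which fall into 9 groups. The single-cell library came from colon of wild type female mice, aged 12 weeks and given 2% DSS (dextran sulfate sodium, which injures the colon epithelium), and carried the label D3. Its description calls the cells gp38+CD90+ total iMSC, and how many animals went into it is not given in the sources used here. Open chromatin was measured by ATAC-seq in 4 sorted colon populations of male mice aged 12 weeks, labelled MRISC (the Map3k2-regulated intestinal stromal cells of the series title), CD34 SP, CD138 (CD34-CD138+) and Myofibroblast. Each had 2 libraries and 1 deposited pair of peak lists, and all were sorted as gp38-positive and negative for CD45, Epcam and CD31. The labels give neither a genotype or treatment of the ATAC-seq mice nor the antibodies that define each subset. The 12 bulk RNA samples were not analysed here. With 1 single-cell library there was no replicate, so no difference was tested, and all intervals cover counting error only.

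Adventitial fibroblasts lie around blood vessels and in the deep connective tissue of many organs, including the gut submucosa, and are known by Pi16, Cd34 and Ly6a in the mouse. They make collagen and other matrix, and they are a known source of alarmins, chemokines and signals to vessels and nerves. Ebf1 encodes an early B cell factor, a DNA-binding transcription factor that is also made in stromal and fat-forming cells. Has1 encodes a membrane enzyme that makes hyaluronan, a large sugar polymer of loose connective tissue. Npy1r encodes a receptor for neuropeptide Y, a transmitter of sympathetic nerves. Ackr4 encodes a receptor that takes up CCL19, CCL21 and CCL25 without signalling like a usual chemokine receptor. Cilp encodes a secreted matrix protein first known from cartilage.

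The DNA at these genes is shown first, because open chromatin was the measurement made in other mice and with another assay, which the choice of members did not use. Of the 5 markers and the 30 genes with the highest ratio in members (below), 27 had at least 1 promoter in RefSeq, 45 promoters in all, each running from 250 bases before to 50 bases after a start (build GRCm38.p6). Among the markers, the promoters of Has1, Cilp and the upstream start of Ebf1 overlapped a total peak in MRISC, CD34 SP and CD138, that of Npy1r in MRISC and CD138, that of the other Ebf1 start in MRISC alone, and that of Ackr4 in none of the 4. The promoters of Pi16 and Pcolce2, which are among those 30 genes, overlapped a peak in MRISC and CD34 SP and in neither CD138 nor Myofibroblast. Printed here are the promoters of Has1 and Npy1r, as markers, and of Pi16 and Pcolce2, for that pattern. Capitals mark TGANTCA, the AP-1 word, which was searched on both strands and is its own reverse complement in pattern.
Has1 promoter, chr17:17855139-17855438, minus strand: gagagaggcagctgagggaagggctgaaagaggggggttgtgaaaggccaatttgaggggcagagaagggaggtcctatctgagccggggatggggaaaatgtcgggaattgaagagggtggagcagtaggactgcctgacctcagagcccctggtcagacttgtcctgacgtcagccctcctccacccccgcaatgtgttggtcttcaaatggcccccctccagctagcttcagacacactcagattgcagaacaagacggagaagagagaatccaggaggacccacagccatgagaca
Npy1r promoter, chr8:66697172-66697471, plus strand: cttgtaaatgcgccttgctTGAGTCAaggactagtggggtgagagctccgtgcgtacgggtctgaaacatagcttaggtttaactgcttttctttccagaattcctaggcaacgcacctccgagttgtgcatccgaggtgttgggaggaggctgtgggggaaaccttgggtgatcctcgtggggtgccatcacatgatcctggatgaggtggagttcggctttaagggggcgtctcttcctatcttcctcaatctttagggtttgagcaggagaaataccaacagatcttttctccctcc
Pi16 promoter, chr17:29318632-29318931, plus strand: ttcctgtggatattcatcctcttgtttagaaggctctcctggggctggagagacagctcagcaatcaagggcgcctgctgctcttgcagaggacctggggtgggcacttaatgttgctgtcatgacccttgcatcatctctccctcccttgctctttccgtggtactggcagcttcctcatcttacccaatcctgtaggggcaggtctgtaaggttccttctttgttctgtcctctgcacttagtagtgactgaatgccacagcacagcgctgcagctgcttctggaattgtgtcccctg
Pcolce2 promoter, chr9:95637378-95637677, plus strand: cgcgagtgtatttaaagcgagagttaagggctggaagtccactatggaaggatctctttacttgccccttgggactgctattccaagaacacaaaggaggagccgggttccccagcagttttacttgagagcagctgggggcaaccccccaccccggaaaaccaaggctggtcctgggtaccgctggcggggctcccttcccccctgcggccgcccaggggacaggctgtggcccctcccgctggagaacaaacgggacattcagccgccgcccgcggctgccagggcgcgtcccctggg

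The highest-scored MRISC-specific peaks at Ebf1, Cilp, Cd81 and Prss23 are printed next (central bases, at most 300, build GRCm38). Ebf1 and Cilp are markers. Cd81 encodes a tetraspanin surface protein, and Prss23 a secreted serine protease, and both were high in members. The score is the authors' and only ordered peaks within MRISC, where the Ebf1, Cilp, Cd81 and Prss23 peaks stood at the 76.2, 62.8, 80.8 and 73.4 percentile of all peaks. Those of Cilp, Cd81 and Prss23 hold the AP-1 word, in capitals, and that of Ebf1 does not. Among the highest-scored MRISC-specific peaks read but not printed, those of Has1, Npy1r, Ackr4 and Pi16 do not hold it. Those of Il33 and Pcolce2 do, over their full length. Of the markers, only Cilp had it in this peak.
Ebf1 peak, chr11:44620787-44621086, plus strand: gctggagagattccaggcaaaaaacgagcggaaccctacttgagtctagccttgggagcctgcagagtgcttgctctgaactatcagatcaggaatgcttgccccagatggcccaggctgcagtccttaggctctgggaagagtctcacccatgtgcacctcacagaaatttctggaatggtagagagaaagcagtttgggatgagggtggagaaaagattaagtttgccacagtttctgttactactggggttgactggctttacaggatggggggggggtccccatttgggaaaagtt
Cilp peak, chr9:65272550-65272837, plus strand: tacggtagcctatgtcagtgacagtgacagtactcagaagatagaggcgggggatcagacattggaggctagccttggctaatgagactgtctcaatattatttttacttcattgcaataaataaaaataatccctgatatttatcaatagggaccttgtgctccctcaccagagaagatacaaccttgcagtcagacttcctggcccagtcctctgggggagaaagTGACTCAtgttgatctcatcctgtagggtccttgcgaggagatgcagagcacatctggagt
Cd81 peak, chr7:143049802-143050101, plus strand: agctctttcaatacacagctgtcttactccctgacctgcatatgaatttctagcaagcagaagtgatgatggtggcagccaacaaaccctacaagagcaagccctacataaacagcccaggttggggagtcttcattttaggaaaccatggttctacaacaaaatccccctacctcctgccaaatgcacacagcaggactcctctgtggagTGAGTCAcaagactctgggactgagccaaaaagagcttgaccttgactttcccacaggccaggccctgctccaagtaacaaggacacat
Prss23 peak, chr7:89512249-89512548, plus strand: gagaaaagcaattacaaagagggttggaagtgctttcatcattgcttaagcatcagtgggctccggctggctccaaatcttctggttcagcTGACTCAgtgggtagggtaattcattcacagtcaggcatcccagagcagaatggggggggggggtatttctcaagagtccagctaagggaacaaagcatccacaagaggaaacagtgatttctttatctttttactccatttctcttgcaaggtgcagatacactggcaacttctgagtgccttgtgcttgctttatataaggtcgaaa

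The AP-1 word was found in 7 of the 45 promoters (15.6%), several of which are alternative starts of 1 gene, and in 2565 of all 32851 RefSeq promoters of that length (7.81%). They were promoters of Npy1r, Krtdap, Ctla2a, Prss23 and Il6. The EBF word TCCCNNGGGA, likewise the same pattern on both strands and not overlapping the AP-1 word, was in 0 of the 45 and in 297 of all promoters (0.904%). In the central 200 bases of specific peaks the EBF word was present in 0.747% of 82517 MRISC peaks, 0.558% of 49629 CD34 SP peaks, 0.523% of 126535 CD138 peaks and 0.556% of 112847 Myofibroblast peaks. The AP-1 word was present in 8.74% of the MRISC peaks, 12.5% of the CD34 SP peaks, 7.19% of the CD138 peaks and 6.77% of the Myofibroblast peaks. A matched word describes letters only.

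The members held 4462976 UMIs and the other 10706 kept barcodes 68457221. The median was 6138.5 UMIs and 2162 genes per member, against 6050.5 UMIs and 2294 genes in the other barcodes, and the median share of mitochondrial UMIs was 1.22% in members and 1.34% in the others. Levels are given as pooled CPM, counts per 1e6 UMIs, from the sum of a gene over all barcodes of a group and the total of that group. Of the others, 9213 had a sum of at least 3 UMIs over Adamdec1, Kcnk2 and Ces1d, genes of lamina propria fibroblasts, and form the lamina propria group, so the whole comparison is close to one with that group. The Ptx3 group of 209 barcodes had at least 3 of the 6 Ptx3-group genes, and 69 mesothelium-like barcodes had at least 2 of the 4 mesothelial genes. Empty droplets were 546978 raw barcodes with 1 to 100 UMIs that the authors did not call as cells, and their pooled profile stands for free RNA.

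Of the kept barcodes, 1419 had a UMI of Ebf1, 1261 had a sum of 2 or more over the other 4 markers, and 814 had both. Of these, 140 were set aside for the Ptx3-group genes and 4 for the mesothelial genes. Has1 was detected in 473 members (70.6%), Cilp in 398 (59.4%), Npy1r in 208 (31.0%) and Ackr4 in 203 (30.3%). Members with 1 of the 4 markers numbered 233, those with 2 were 284, those with 3 were 131, and 22 had all 4. The most frequent combinations were Has1 alone in 128 members, Has1 with Cilp in 112 and Cilp alone in 80. Npy1r alone was found in 14 members and Ackr4 alone in 11. Npy1r or Ackr4 was detected in 350 members, and the other 320 had Has1 or Cilp only. The rule chose members by these genes, so the counts describe the choice.

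Ebf1 stood at 544 CPM in members (exact Poisson 95% interval 522 to 566), against 34.9 CPM in the other barcodes and 59.0 CPM in empty droplets. Has1 stood at 684 CPM in members and 48.9 CPM in the others, and Cilp at 313 and 18.2 CPM. Npy1r stood at 106 CPM in members and 2.06 CPM in the others, and Ackr4 at 86.7 and 2.86 CPM. All 5 were above the level of empty droplets in members, which the rule itself favoured by asking for UMIs of these genes. With each barcode thinned to 3000 UMIs, which kept 607 members and 10033 others and left out 63 and 673 shallower ones, Npy1r was detected in 20.9% of members and 0.558% of the others (unthinned 31.0% and 1.12%). Among the 67 mesothelium-like barcodes deep enough, the thinned share with Npy1r was 7.46%. The median depth before thinning was 10751 UMIs in the mesothelium-like barcodes.

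**Figure D1:**
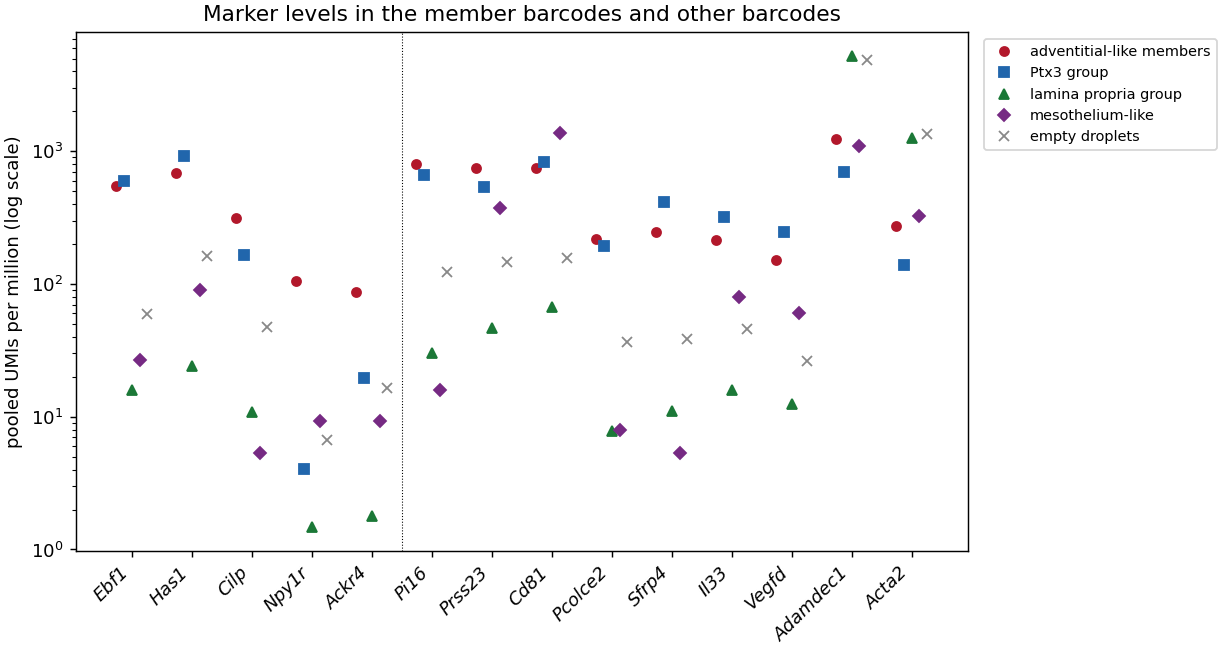
Pooled level in CPM (log axis) of markers and other genes in members (red circles), the Ptx3 group (blue squares), the lamina propria group (green triangles), mesothelium-like barcodes (purple diamonds) and empty droplets (grey crosses), with the 5 rule markers left of the dotted line. Npy1r stood at 106 in members against 4.02 in the Ptx3 group, while Ebf1 stood at 544 and 594. Adamdec1 stood at 1241 in members against 5243 in the lamina propria group. Npy1r and Ebf1 were used to choose members, and Adamdec1 to choose the lamina propria group.

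The label was set against a list of adventitial markers that the rule did not use. That list was chosen with earlier results of these data known, so it is no independent check. Pi16, a peptidase inhibitor that marks adventitial fibroblasts, stood at 799 CPM in members (773 to 826) and 54.3 CPM in the other barcodes, a ratio of 14.7 (95% interval 14.1 to 15.4). It was detected in 429 members (64.0%), or in 54.4% after thinning, against 6.56% of the others and 5.97% of the mesothelium-like barcodes. Of 13 adventitial markers with at least 20 CPM in the higher pool, 5 were at least 2-fold higher in members (Pi16, Mfap5, Anxa3, Col14a1 and Igfbp6) and 0 were lower, with a median log2 ratio of 0.96. Among all 6126 genes at that floor, 3.49% were at least 2-fold higher (214) and 4.82% at least 2-fold lower (295), with a median of -0.15. Scaling by median of ratios, which removes that shift, gave 265 higher and 220 lower. The adventitial sum was 12243 CPM in members and 6854 CPM in the others. Cd34 was 1.56-fold higher (648 against 416 CPM), Ly6a 1.19-fold (1769 against 1485 CPM) and Clec3b 1.28-fold (2623 against 2046 CPM), and all 3 were abundant in the other barcodes too. Dpp4, a surface peptidase of adventitial cells, was low at 12.1 CPM in members and 2.41 CPM in the others. In the Ptx3 group the adventitial sum was 11415.5 CPM, near the 12243 CPM of members. With that group as the comparison, 1 of 13 adventitial markers at the floor was at least 2-fold higher in members and 0 were lower. The median log2 ratio was then 0.25, so the list set members apart from the other barcodes more than from the Ptx3 group.

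Markers of other types were read in the same way. The sort markers gp38 (Pdpn) and CD90 (Thy1) stood at 240 and 150 CPM in members and at 288 and 149 CPM in the others. The immune genes Ptprc and Cd3e and the neutrophil gene S100a9 were at 0 in members, for which the exact interval reaches 0.827 CPM. Over the 11 immune genes the sum was 89.4 CPM in members, 170 CPM in the others and 206 CPM in empty droplets, and over the 8 epithelial genes it was 48.8, 68.0 and 149 CPM. Over the 9 endothelial genes the sum was 20.8 CPM in members and 28.6 CPM in the others, over the 6 pericyte genes 33.2 and 69.2 CPM, and over the 6 glial and interstitial cell genes 5.60 and 7.77 CPM. At the floor, 1 endothelial, 1 immune and 1 epithelial gene were within 2-fold, Rgs5 alone of 2 pericyte genes was lower, and no glial gene reached it. Counting barcodes with several genes of a foreign list, 25 members (3.73%) passed the smooth muscle gate, against 1501 others (14.0%), and 8 (1.19%) the immune gate, against 236 others (2.20%). The pericyte and epithelial gates held 1 member each. No doublet caller was run, and without the 33 members in such a gate 223 genes were higher and 335 lower.

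**Figure D2:**
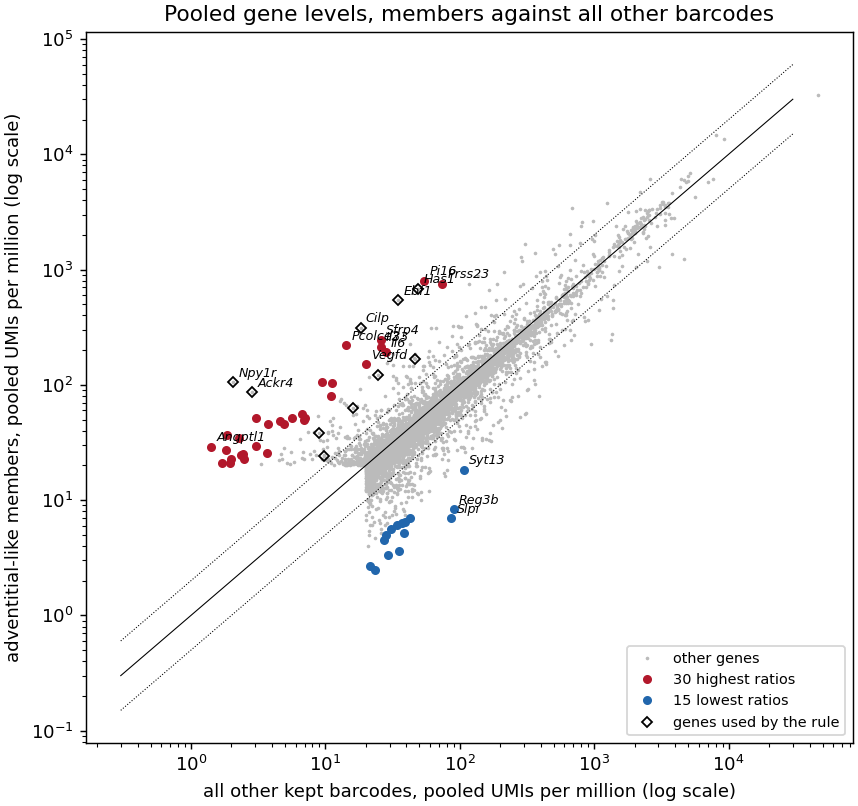
Pooled CPM of each gene with at least 20 in the higher pool, in members (vertical) against all other kept barcodes (horizontal), both on log axes, with the equal level (solid) and 2-fold lines (dotted). The 30 highest ratios (red) run from 6.84 to 20.8 and the 15 lowest (blue) from 0.0806 to 0.183. Genes used by the rule are open diamonds.

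Among the 30 genes with the highest ratio, Prss23, Sfrp4 and Pcolce2, which encode secreted proteins, were the most abundant after Pi16. Prss23 stood at 753 CPM in members (728 to 779) and 73.4 CPM in the others, 10.3-fold higher, and was detected in 89.1% of members against 22.3% of the others (thinned 78.4% and 13.3%). Pcolce2, which encodes an enhancer of procollagen processing, stood at 220 CPM (207 to 234) and 14.2 CPM, 15.5-fold higher, and was found in 44.5% of thinned members, 2.63% of thinned others and 0% of the thinned mesothelium-like barcodes. Sfrp4, a secreted Wnt antagonist, stood at 246 CPM in members and 25.8 CPM in the others, and the 10 members with the most held 47.9% of its UMIs. Prss23 and Pcolce2 were spread widely, with 7.20% and 8.34% of their UMIs in the top 10 members. In the 140 barcodes set aside for the Ptx3-group genes, Prss23 stood at 515 CPM, Pcolce2 at 192 CPM and Sfrp4 at 348 CPM.

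Several of the 30 genes encode signals to vessels, nerves and immune cells or their receptors. Il33, an alarmin released by stromal cells, stood at 214 CPM in members (201 to 228) and 25.7 CPM in the others, 8.33-fold higher, and was found in 52.5% of members. Vegfd, a growth factor for lymphatic vessels, stood at 151 and 20.1 CPM (7.53-fold), and Il6, a cytokine of the acute response, at 192 and 28.0 CPM (6.84-fold). These 3 were not limited to members. In the 140 barcodes set aside for the Ptx3-group genes, Il33 stood at 305 CPM, Vegfd at 266 CPM and Il6 at 600 CPM. Tek, the receptor for angiopoietins, stood at 45.3 and 4.94 CPM (9.17-fold) and was in 25.1% of members, while the endothelial genes above were lower in sum. Angptl1, a secreted protein related to angiopoietins, had a ratio of 20.8 (15.8 to 27.3), with 29.1 CPM in members and 1.40 CPM in the others. Penk, the precursor of enkephalin peptides, stood at 80.4 CPM in members and 11.0 CPM in the others, and Sema3d, a guidance protein, at 24.6 and 2.37 CPM. Fgf18 and Fgf9, which encode secreted fibroblast growth factors, stood at 21.1 and 25.8 CPM in members and at 1.94 and 3.68 CPM in the others. Levels of Tek, Angptl1, Penk, Sema3d, Fgf18 and Fgf9 in the 140 set-aside barcodes are not given here. Whether these genes were limited to members was not tested. None of them is among the highest ratios over the Ptx3 group that are listed below.

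Transcription factors among the 30 were Osr2, Hoxb2 and Prrx1, known from mesenchyme in development. Osr2 stood at 45.3 CPM in members and 3.72 CPM in the others, Hoxb2 at 29.4 and 3.07 CPM, and Prrx1 at 55.8 and 6.66 CPM. Wisp2, a matricellular protein of the CCN family, had a ratio of 19.9 at 37.0 and 1.86 CPM, and of 8.46 when members were chosen on part of the UMIs and levels read from the others. Cmah, an enzyme that makes a sialic acid absent from humans, had a ratio of 16.8 at 51.5 and 3.07 CPM. The ratios of Osr2, Hoxb2 and Prrx1 were 12.2, 9.57 and 8.38. In members with fewer than 2 Ptx3-group genes they were 10.0, 9.28 and 6.10, and that of Cmah was 12.5. Whether these genes were limited to members was not tested. The remaining genes were Efhd1, Ren1, Krtdap, Flrt3, Ctla2a, Adamtsl3, 1700019D03Rik, Lrrn4cl, Fez1, Chrdl1 and Flrt2, with ratios from 7.06 (Flrt2) to 15.1 (Efhd1). A few barcodes carried 2 of them. Ctla2a was in 3.13% of members, with 97.4% of its UMIs in 10 of them, and Ren1, the gene of renin, in 4.33%, with 84.4% in 10. With members limited to those with fewer than 2 Ptx3-group genes, Fgf18 was 5.37-fold higher, Sfrp4 4.68-fold, Penk 4.53-fold, Krtdap 4.47-fold and Ctla2a 3.49-fold. Each of the 30, picked for high ratios in these same data, stayed at least 2-fold higher under every alternative tried. Another CPM floor leaves a ratio unchanged and could not move it.

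The 15 genes with the lowest ratio had few UMIs in members. Ahr, the aryl hydrocarbon receptor, stood at 2.69 CPM in members and 21.3 CPM in the others (ratio 0.126). Milr1, an immunoglobulin-like receptor known from mast cells, stood at 5.15 and 38.7 CPM (0.133), Syt13, a synaptotagmin, at 18.4 and 107 CPM (0.171), and Hapln1, which links hyaluronan to proteoglycans, at 5.60 and 30.7 CPM (0.183). Rcsd1, Spock3, Adap2 and Gcnt2 had ratios from 0.106 (Rcsd1) to 0.178 (Gcnt2), and so had Adap2os at 0.164, which overlaps Adap2 on the other strand, so reads of the pair may not be told apart. Slpi, Reg3b, Spink4, Reg3g and Tinagl1 were the other 5, and their low ratios depended on which barcodes were in the comparison. Slpi, a protease inhibitor, stood at 6.95 CPM in members, 86.2 CPM in the others and 6860 CPM in mesothelium-like barcodes, and its ratio was 0.719 with other cell types left out. Reg3b, an antimicrobial lectin of the epithelium, stood at 8.29 CPM in members, 89.8 CPM in the others and 142 CPM in empty droplets. Leaving other cell types out of the comparison gave ratios of 0.888 for Reg3b, 0.943 for Spink4, 1.35 for Reg3g and 1.13 for Tinagl1.

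Matrix genes differed by kind. Of 17 collagen genes at the floor, 3 were at least 2-fold higher (Col14a1, Col8a1 and Col6a3) and 3 lower (Col12a1, Col15a1 and Col18a1), with a median log2 ratio of 0.10. Col14a1, which binds collagen fibrils, stood at 746 CPM in members and 188 CPM in the others, and Col8a1, a network collagen of vessel walls, at 184 and 46.5 CPM. Col15a1 and Col18a1, both collagens of basement membranes, stood at 132 and 111 CPM in members and at 320 and 359 CPM in the others. Of 8 small leucine-rich proteoglycans 1 was higher (Ecm2, 101 against 41.3 CPM), while Dcn (decorin) stood at 14827 and 7998 CPM. Of 18 elastic fibre genes 2 were higher (Mfap5 and Emilin2) and 1 lower (Emilin1), with a median of -0.21. Of 5 hyaluronan genes besides Has1, Tnfaip6, whose product loads protein onto hyaluronan, stood at 1185 and 291 CPM, and Ugdh, which makes the sugar precursor, at 558 and 215 CPM, while Hapln1 was lower. Has2 was low in both, at 13.7 CPM in members and 11.7 CPM in the others. Over the hyaluronan genes besides Has1 the sum was 1996 CPM in members and 3298 CPM in the Ptx3 group, with 0 of 5 past 2-fold. Of 13 matricellular genes 6 were higher (Thbs1, Thbs2, Sparcl1, Smoc2, Cyr61 and Wisp2) and 2 lower (Postn and Spon1), with a median of 0.64. Of 8 metalloproteinase and inhibitor genes 2 were higher (Mmp3 and Timp1) and 0 lower.

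BMP antagonists keep BMP signals low near the crypt base, and of 7 at the floor outside the rule 4 were at least 2-fold higher (among them Grem1, Chrd and Chrdl1) and 0 lower, with a median log2 ratio of 1.05. Of 5 BMP ligand genes 0 were higher and 3 lower (Bmp4, Bmp5 and Bmp7), with a median of -1.31. Grem1 stood at 401 CPM in members (383 to 420) and 171 CPM in the others, and was found in 34.1% of thinned members against 21.5% of thinned others. Bmp4 stood at 364 CPM in members and 899 CPM in the others, and Bmp5 at 28.9 and 105 CPM. Of 4 Wnt ligand genes 0 were higher and 3 lower (Wnt2, Wnt4 and Wnt5b), with a median of -1.32, and Wnt5a stood at 32.7 and 31.6 CPM. Of 5 Wnt antagonist genes Sfrp4 was higher and Dkk3 and Frzb were lower. R-spondins amplify Wnt signals in stem cells, and Rspo3 stood at 67.4 CPM in members (60.0 to 75.5) and 19.7 CPM in the others, 3.43-fold higher, while Rspo1 stood at 45.5 and 27.0 CPM. The R-spondin sum was 116 CPM in members and 211 CPM in the Ptx3 group.

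Chemokines were mixed. Of 14 at the floor 5 were at least 2-fold higher and 4 lower, with a median log2 ratio of -0.06, which is above that of all genes. Ccl7 and Ccl2, which draw monocytes, stood at 875 and 743 CPM in members and at 136 and 294 CPM in the others, and Cxcl1, which draws neutrophils, at 1288 and 285 CPM. Cxcl2 and the Ccl19 gene with the more UMIs of 2 that carry the symbol were the others above 2-fold. Cxcl13, which draws B cells, stood at 52.7 CPM in members and 280 CPM in the others, and Cxcl14, Cxcl9 and Ccl8 were lower as well. The chemokine sum was 6162 CPM in members, 5140 CPM in the others and 8834 CPM in the Ptx3 group. Ccl7 stood at 1225 CPM in the 140 barcodes set aside for the Ptx3-group genes, so it was not limited to members. Of 2 other scavenging receptor genes at the floor, Ackr3 stood at 208 and 153 CPM and Ccrl2 at 25.5 and 35.1 CPM. Of 11 complement genes 3 were higher (C3, Cfb and Masp1) and 1 lower (Clu), and C3 stood at 3428 CPM in members and 686 CPM in the others, present in 96.9% of thinned members and 55.4% of thinned others. The complement sum was 10242 CPM in members and 10733 CPM in the Ptx3 group. Of 9 genes of the IL-6 family route Il6 and Socs3 were higher and Il11 lower, and of 3 alarmin and IL-1 genes Il33 was higher.

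Immediate early genes, which are induced within minutes of a stimulus and also by tissue dissociation, formed the list with the most genes above 2-fold. Of 16 at the floor 9 were higher and 1 (Nr4a2) lower, with a median log2 ratio of 1.17. Their summed level was 29805 CPM in members, 13353 CPM in the others, 33343 CPM in the Ptx3 group and 16961 CPM in empty droplets. Per barcode the median of this sum was 29661 CPM in members (10th to 90th percentile 9318 to 52385) and 10160 CPM in the others (2922 to 28348), so the ranges overlapped widely. Atf3 stood at 1654 CPM in members and 308 CPM in the others, Egr1 at 2017 and 665 CPM, and Fos at 6117 and 2592 CPM. In the MAP3K2 route Klf2 and Klf4, factors at its downstream end, stood at 2385 and 972 CPM in members and at 797 and 427 CPM in the others, and the other 7 genes at the floor were within 2-fold. Map3k2 stood at 37.6 CPM in members (32.2 to 43.8) and 36.5 CPM in the others. Whether dissociation moved these levels was not tested.

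The smaller lists were as follows. All 8 smooth muscle genes were at least 2-fold lower in members, with a sum of 899 CPM against 3739 CPM in the others, and the barcodes passing the smooth muscle gate made up more of the others, as given above. That difference in makeup was not tested as a source of the lower sum. Adamdec1, the metalloproteinase of lamina propria fibroblasts, stood at 1241 CPM in members, 4691 CPM in the others and 4836 CPM in empty droplets, and Ces1g was lower too, the other 2 genes of that list being within 2-fold. Of 5 crypt-top genes 3 were lower (Bmp5, Bmp7 and Nrg1) and F3 higher. Of 3 mesothelial genes outside the rule Wt1 was higher and Krt19 lower. Zfp521, a zinc finger partner of EBF factors, stood at 33.4 CPM in members and 9.16 CPM in the others, and Ebf2 and Ebf3 were low, at 16.6 and 8.74 CPM in members. Of the vasoactive receptors Npr1 and Ramp1 were higher and Ednra lower among 7. Of 6 Slit, Robo and semaphorin genes Slit3, Sema3b and Sema3d were higher and Robo1 and Robo2 lower. Of 8 retinoid genes 1 was higher and 4 were lower, of 8 TGF-beta genes Tgfb1 and Tgfbi were lower, and of 7 IGF genes Igfbp6 was higher and Igfbp3 and Igfbp5 lower. Of 9 homeobox genes Meis1 was higher and Nkx2-3 lower, and the 4 PDGF genes were within 2-fold.

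The last list held surface markers used to sort stromal cells, some of which the study named its populations by. Cd81 stood at 747 CPM in members (721 to 772) and 116 CPM in the others, 6.41-fold higher, and was found in 83.2% of thinned members against 16.4% of thinned others. The thinned mesothelium-like barcodes had it in 98.5%, so Cd81 was not limited to members. Sdc1, which encodes CD138, stood at 26.2 CPM in members and 109 CPM in the others. The other 5 sort genes were within 2-fold.

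Since the rule has thresholds, barcodes just outside it were described beside the members, with the Ptx3-group and mesothelial limits kept. Members with a sum of exactly 2 over the 4 markers (113 barcodes) had 662 CPM of Pi16, those with 3 (105) had 625 CPM, and those with 4 or more (452) had 861 CPM. The 156 barcodes with Ebf1 and a sum of 1 had 453 CPM, and the 399 with Ebf1 and a sum of 0 had 277 CPM. Without Ebf1, the 419 barcodes with a sum of 2 or more had 141 CPM, the 917 with a sum of 1 had 26.8 CPM and the 8537 with none had 16.5 CPM. Adamdec1 ran the other way, with 1241 CPM in members, 1802 and 3187 CPM in the barcodes with Ebf1 and sums of 1 and 0, and 5204 CPM in those with a sum of 2 or more but no Ebf1. Pcolce2 was as high just outside the rule, at 232 CPM for a sum of 1, as in members, at 220 CPM. Among barcodes with Ebf1, Grem1 did not rise with the marker sum: it stood at 401 CPM in members and 488 and 439 CPM at sums of 1 and 0. Without Ebf1, Grem1 did rise with the sum, from 140 CPM for 0 to 232 CPM for 1 and 350 CPM for 2 or more. Members with 1 UMI of Ebf1 (173) had 550 CPM of Pi16, 144 CPM of Pcolce2 and 2044 CPM of Adamdec1, against 141, 25.6 and 5204 CPM in the barcodes with a sum of 2 or more and no Ebf1. Median depth was 6138.5 UMIs in members and 4994 UMIs in the barcodes with Ebf1 and a sum of 1.

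**Figure D3:**
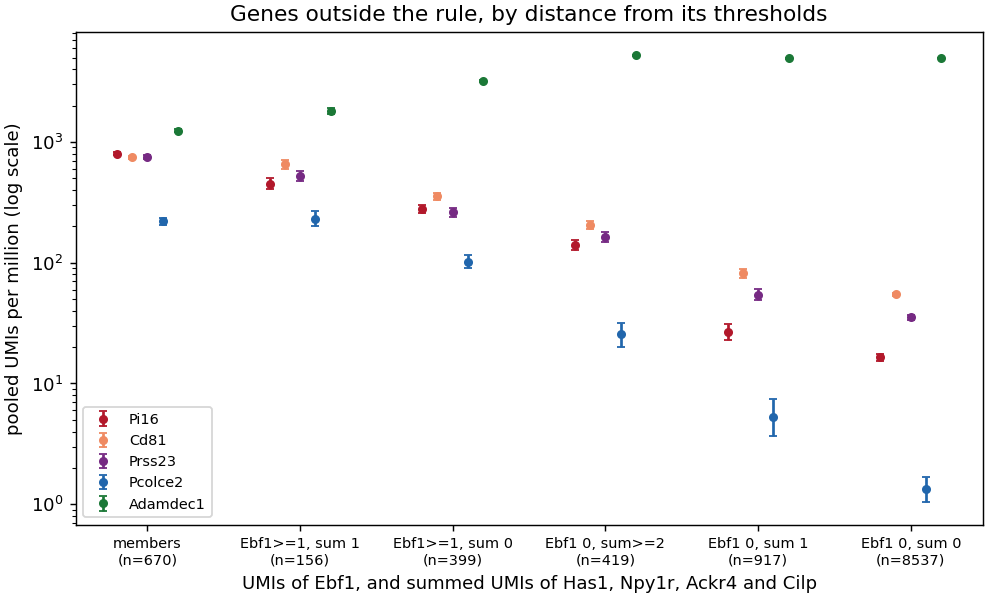
Pooled CPM (log axis, exact Poisson 95% intervals) of 5 genes outside the rule in members and in 5 classes of barcodes outside its thresholds. Pi16 stood at 799 in members, 453 and 277 in barcodes with Ebf1 and a marker sum of 1 or 0, and 141, 26.8 and 16.5 in barcodes without Ebf1.

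Against the Ptx3 group, the nearest fibroblasts that the rule set aside, fewer genes passed the 2-fold rule than against all other barcodes. Of 5849 genes at the floor, 104 (1.78%) were at least 2-fold higher and 126 (2.15%) at least 2-fold lower, with a median log2 ratio of 0.07. Of the 209 barcodes of the Ptx3 group, 140 also met the Ebf1 and marker conditions, and Ebf1 (544 and 594 CPM), Pi16 (799 and 665 CPM), Pcolce2 (220 and 193 CPM) and Cd81 (747 and 836 CPM) stood at like levels in members and in the Ptx3 group. Npy1r differed most among the markers, at 106 CPM in members and 4.02 CPM in the Ptx3 group, followed by Ackr4 at 86.7 and 19.5 CPM. The rule counted UMIs of both to choose members, a condition the Ptx3 group did not have to meet. Median depth was 6138.5 UMIs in members and 8268 UMIs in the Ptx3 group.

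Among the 10 highest ratios over the Ptx3 group were those of Col8a1, Thbs2 and Fap, found in 50.6%, 26.1% and 22.4% of members. Col8a1 stood at 184 CPM in members and 27.0 CPM in the Ptx3 group (6.80-fold, 5.07 to 9.33), Thbs2, a matricellular protein, at 63.0 and 9.77 CPM (6.44-fold, 3.95 to 11.2), and Fap, the fibroblast activation protease, at 53.6 and 9.77 CPM (5.48-fold, 3.35 to 9.57). Of genes named for other reasons, Grem1 stood at 401 and 94.8 CPM (4.23-fold, 3.61 to 4.99), Bmp4 at 364 and 136 CPM, Aspn, the proteoglycan asporin, at 397 and 116 CPM, and Col1a1, within 2-fold, at 3126 and 1597 CPM. Chil1, a chitinase-like protein, and Sntb1, a syntrophin, were 6.53-fold and 5.57-fold higher, with 48.2% of the Chil1 UMIs in 10 members. The other 5 of the 10 highest ratios rested on few barcodes: Ren1, Gpx2, Jchain, Igha and Saa3 had from 70.2% (Saa3) to 93.4% (Jchain) of their member UMIs in 10 members. Jchain, Igha and Gpx2, genes of plasma cells and epithelium, stood at 167, 439 and 39.8 CPM in empty droplets.

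Lower in members were Dkk2, a Wnt antagonist, at 0.672 CPM in members and 20.1 CPM in the Ptx3 group, and Fabp4, a lipid carrier of fat and endothelial cells, at 2.46 and 47.7 CPM. Adra1b, an adrenergic receptor, stood at 8.74 and 59.8 CPM, Chrm3, a muscarinic receptor, at 3.14 and 20.1 CPM, and Bmper, a secreted BMP modulator, at 12.3 and 77.0 CPM. Sned1 stood at 49.5 and 302 CPM, and the more abundant Ccl19 gene at 40.3 and 233 CPM. Alkal2, Rsad2 and S100b completed the 10 lowest, with ratios of 0.0750, 0.0866 and 0.123. Il6 stood at 192 CPM in members and 517 CPM in the Ptx3 group, Cxcl1 at 1288 and 2670 CPM, and Wt1, a factor of the mesothelial lineage, at 43.5 and 246 CPM. Immediate early genes did not separate the pair by the 2-fold rule, with 0 higher and 0 lower of 16 and a median of -0.15. By lists, 3 of 17 collagen genes and 3 of 4 BMP ligand genes were higher in members, and 3 of 14 chemokines were lower and 2 higher. Beside them, 4 of 7 smooth muscle genes were higher in members and 1 lower (sum 899 CPM in members, 519 CPM in the Ptx3 group), and 2 of 3 lamina propria fibroblast genes were higher (1533 and 811 CPM). The part of other cell types in the collagen and BMP counts was not tested.

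Against the lamina propria group, 244 of 6137 genes were at least 2-fold higher in members (3.98%) and 310 lower (5.05%), with a median log2 ratio of -0.16. Cmah stood at 51.5 CPM in members and 1.32 CPM in that group, Pcolce2 at 220 and 7.86 CPM, and Wt1 at 43.5 and 1.19 CPM.

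Members varied along the genes that set the Ptx3 group apart. None of the 6 genes was detected in 371 members, 1 in 180 and 2 in 119. Npy1r stood at 136 CPM in members with 0 of them, 103 CPM with 1 and 29.9 CPM with 2, and at 4.77 CPM in the 140 barcodes set aside with 3 or more. Grem1 stood at 467, 377, 261 and 89.1 CPM over the same classes, and C1qtnf3, a secreted C1q-related protein, at 440, 339, 180 and 81.1 CPM. Wt1 ran upward at 5.06, 49.7, 136 and 271 CPM, Ebf2 at 4.64, 21.0, 42.0 and 81.9 CPM, and Adm, the vasodilator adrenomedullin, at 157, 233, 449 and 1194 CPM. Ebf1 stayed between 528 and 596 CPM, and Pi16 was highest with 2 genes, at 1148 CPM. These genes were picked after their values were seen. Median depth also ran upward, at 5733, 6274, 7107 and 9026.5 UMIs, and its part in these levels was not tested.

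**Figure D4:**
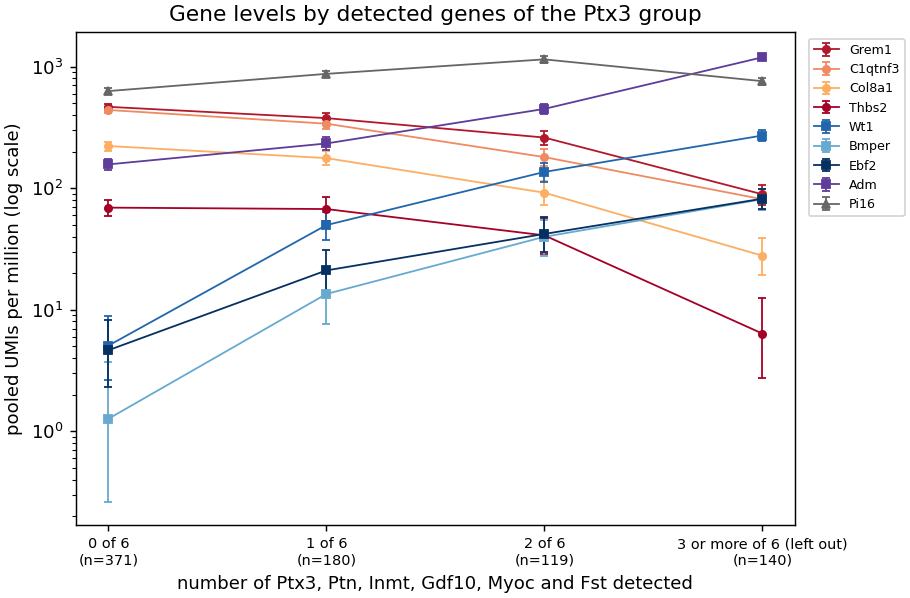
Pooled CPM (log axis, exact Poisson 95% intervals) of 9 genes in members with 0, 1 or 2 of the 6 Ptx3-group genes and in the barcodes set aside with 3 or more. Grem1 ran from 467 down to 89.1 and Wt1 from 5.06 up to 271 across the classes, while Pi16 stayed between 629 and 1148.

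Members were also divided by the receptor genes. The 350 members with a UMI of Npy1r or Ackr4 and the 320 with Has1 or Cilp only were alike in most genes: of 2892 genes with at least 50 CPM in the higher pool, 6 were at least 2-fold higher and 10 lower. Pi16 stood at 856 CPM in the receptor-positive members and 733 CPM in the rest of the members, Pcolce2 at 255 and 180 CPM, and Cd81 at 729 and 767 CPM. Wt1 stood at 16.2 and 75.5 CPM and the more abundant Ccl19 gene at 20.3 and 63.8 CPM. Of the 6 higher genes, Jchain, Gpx2, Igha and Igkc were plasma cell or epithelial genes, Saa3 was carried by few barcodes, and Pcsk6, a proprotein convertase, stood at 57.3 and 27.7 CPM. Col8a1 was 1.83-fold higher in the receptor-positive members, at 232 against 127 CPM. Median depth was 6195.5 UMIs and 5898.5 UMIs.

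Open chromatin around the genes was then counted in the sorted populations, whose cells were not chosen by the rule. Windows reached 10 kb past each end of a gene (GENCODE annotation on GRCm38), and specific peaks are those in the lists deposited as specific to 1 population. The windows of the 30 genes with the highest ratio held 175 specific peaks from MRISC cells, 51 from CD34 SP cells, 106 from CD138 cells and 110 from Myofibroblast cells, so MRISC had 39.6% of them. Over all 6120 genes at the floor with a position, MRISC had 25.6%, CD34 SP 22.6%, CD138 27.0% and Myofibroblast 24.9%. MRISC had more specific peaks than each other population at 13 of the 30 genes (43.3%), against 1210 of the 6120 (19.8%). The 15 genes with the lowest ratio had 46, 78, 101 and 60 specific peaks in the same order of populations, 16.1% of them from MRISC. At the 5 markers the counts were 86, 15, 34 and 32, with 51.5% from MRISC, most of them at Ebf1. With 1 pooled list per population there was no replicate spread, and the populations and the single-cell library came from mice of different sex.

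**Figure D5:**
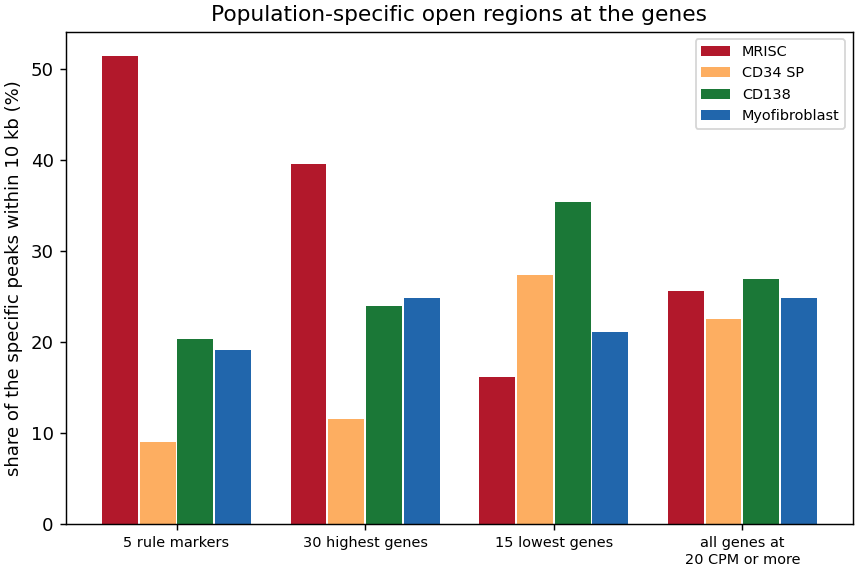
Share (%) of the population-specific peaks within 10 kb that came from MRISC (red), CD34 SP (orange), CD138 (green) and Myofibroblast (blue), for the 5 rule markers, the 30 highest genes, the 15 lowest genes and all genes at 20 CPM or more. MRISC held 39.6% at the 30 highest genes and 16.1% at the 15 lowest, against 25.6% over all genes.

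Ebf1 (chr11:44617317-45008091, plus strand) had 65 specific peaks in the MRISC list, 7 in the CD34 SP list, 30 in the CD138 list and 20 in the Myofibroblast list. Cilp (chr9:65265180-65280605, plus strand) had 8, 1, 1 and 5, and Ackr4 (chr9:104084157-104126933, minus strand) had 9, 1, 3 and 2. Has1 (chr17:17843323-17855205, minus strand) had more in CD34 SP, with 2, 6, 0 and 2, and Npy1r (chr8:66697192-66706792, plus strand) had 2, 0, 0 and 3. Of the long genes among the 30, Adamtsl3 had 26, 8, 7 and 15 specific peaks and Tek had 18, 9, 4 and 3. Prrx1 had 11, 0, 5 and 4 and its promoter overlapped a total peak in MRISC only, Pi16 (chr17:29317680-29330593, plus strand) had 8, 4, 3 and 4, and Cd81 (chr7:143052739-143067934, plus strand) had 11, 0, 4 and 5. At the other 17 of the 30 genes MRISC did not have the most. Cmah had 11, 2, 14 and 5, Pcolce2 6, 1, 4 and 8, Prss23 2, 1, 4 and 3, Wisp2 2, 1, 2 and 4, and Fgf9 3, 3, 3 and 7. Vegfd and Penk had 0 specific peaks of MRISC and Il6 had 1. Adamdec1 had 0, 6, 3 and 1 in the order used above. Counts grow with gene length, and the difference in length between gene sets was not adjusted for.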

How the data were processed

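Each value of the deposited single-cell matrices is a UMI count, a whole number for 1 gene in 1 barcode. Libraries used the 10x Genomics 3' chemistry, per the labels' protocols. The submitters' processing notes name Cell Ranger, bcl2fastq, Seurat, bedtools and mm10, and the matrix header gives software version 3.0.0. The deposited peak lists carry a score for every peak, whose meaning no source states. The peak caller and the way both libraries of a population were joined are not stated either.

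Filtering 11484 barcodes for 500 or more detected genes and no more than 10% mitochondrial UMIs left 11376, with 72920197 UMIs over 31053 genes. Counts were summed per group and divided by the group total, with exact Poisson intervals and exact conditional intervals of ratios, at 95%. A gene was called at a ratio of at least 2 (or at most 0.5) and 20 CPM in the higher pool, with the 15 rule genes left out. No test was run. Named genes were the rule genes, the 30 highest and 15 lowest ratios, the 10 highest and 10 lowest against the Ptx3 group, and members of the gene lists. Some genes counted in the lists and sets are not reported here by name. Genes named outside these were chosen after their values were seen. The members and lists were chosen with earlier results of these data known. Gates for other types took at least 3 genes of a list (smooth muscle 5). Peaks were counted against genes with Python 3.11.15, numpy 2.4.6, scipy 1.17.1 and pandas 2.3.3, and the counting was checked against bedtools 2.31.1 on simulated windows. Alternatives were other thresholds of the rule, another scaling, other floors, thinning, removal of free RNA or of other cell types, and other peak windows.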

Additional observations from a re-analysis of the deposited data

How the results depend on the processing

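No paired analysis was possible because the groups of barcodes come from 1 library and no replicate numbers are shared. Member number was 1089 with no Ebf1 required, 416 when chosen on a random part of the UMIs and 405 at 3000 UMIs per barcode, and 497 to 826 under the other 8 alternatives, against 670. In that split, with levels read from the other UMIs, 245 genes were higher and 378 lower, and the median ratio of the 30 highest genes was 8.53, against 10.2. With floors of 5 and 50 CPM, 392 and 139 genes were higher and 622 and 152 lower, against 214 and 295. Against the Ptx3 group those floors gave 382 and 51 higher and 327 and 54 lower, and against the lamina propria group 442 and 160 higher and 649 and 165 lower. With no Ebf1 required 98 genes were lower. At those floors 18 and 14 of the 30 highest genes were again among the 30 highest. All 30 stayed at least 2-fold higher under the alternatives, at 3.49-fold or more, though the floors could not change a ratio. Ratios that moved by over 1.5 times included Ren1, at 26.0 with a marker sum of 1 and 9.33 with no Ebf1 required, Efhd1, Fgf18, Fez1 and Chrdl1, at 9.25, 6.57, 6.06 and 5.98 with no Ebf1 required, Chrdl1 at 14.5 with other cell types left out, Krtdap at 7.20 in the split of UMIs, and Ctla2a at 18.3 there and 18.4 with a marker sum of 1. Spink4 reversed to 1.04 with no Ebf1 required. Reg3g reversed to 1.31 without barcodes above the 95th percentile of UMIs and to 1.35 with other cell types left out, and Tinagl1 to 1.13 with other cell types left out. The cause was not tested. Windows of 50 kb held 281 specific peaks of MRISC at the 30 genes (34.7%), against 175 (39.6%), and specific peaks above the median score 118 (47.0%). Genes under 20 CPM rest on few UMIs, and 1 library gives no spread between mice. Chosen after seeing the data were, for gene levels, no Ebf1 required, a marker sum of 1, 3000 UMIs and gated members left out, for member number, the split of UMIs, fewer than 2 Ptx3-group genes, the limit on UMIs and gated members left out, and all those against the other groups.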
